A study of Homo sapiens with 36 samples.

Results

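The comparison set HCT116 cells in which both UHRF1 and DNMT1 carry a degron tag (UHRF1-AID/DNMT1-AID) directly against HCT116 cells in which DNMT1 alone carries the tag (DNMT1-AID), each after 8 days of Dox/Auxin. It used 6 of the 36 bulk RNA-seq libraries of the series, 3 a side, chosen by the genotype and the day on their labels. The remaining libraries held WT cells, cells with the tag on UHRF1 alone (UHRF1-AID), and all 4 lines on days 2 and 6. HCT116 is a human colorectal carcinoma cell line, and all 4 lines express OsTIR1, a plant E3 ligase subunit, from a doxycycline-inducible promoter. With auxin, OsTIR1 marks proteins that carry the mini-AID tag for degradation. WT cells have no tag and received the same doxycycline and auxin, so every group was exposed to both agents, and both sides of the main comparison were built to lose DNMT1. The study describes the 3 libraries of a group as separate biological samples. It also states that its AID lines generally had 3 clones a group. The labels do not say which clone or culture each library came from, so p-values measure only the spread between libraries of a group. That spread was estimated over all 36 libraries of the series. Differences between the edited lines that are older than the treatment cannot be told apart from the loss of UHRF1.

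DNMT1 copies CpG methylation onto the new DNA strand after replication. UHRF1 binds hemimethylated DNA, ubiquitinates histones and other partners, and brings DNMT1 to these sites. Methylation at CpG-rich promoters keeps many germline genes, imprinted alleles and, in cancer cells, some tumour suppressor genes silent. Loss of methylation is also known to release retroelement transcripts, which cytosolic nucleic acid sensors can detect, with interferon genes as the output. The comparison asks what removal of UHRF1 adds to the transcriptome of cells from which DNMT1 has been removed as well.

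Read totals were 22808459, 28900394 and 29839674 in UHRF1-AID/DNMT1-AID and 37175136, 27624814 and 23709049 in DNMT1-AID. Of 19942 protein-coding genes, 15415 passed the filter on low counts and were tested. Levels are given as CPM, the reads of a gene relative to the total of its library after TMM scaling. Across genes, the log2 CPM of replicates correlated at 0.98 to 0.983 in UHRF1-AID/DNMT1-AID and at 0.987 to 0.988 in DNMT1-AID. The epithelial markers fitted the label of a colorectal carcinoma line, with EPCAM at 451 and 445 CPM and KRT8 at 3712 and 4476 CPM in the 2 groups. Mitochondrial transcripts took 10.2%, 10.8% and 7.72% of counts in UHRF1-AID/DNMT1-AID and 4.79%, 5.26% and 7.93% in DNMT1-AID. That difference was not past the threshold (exact permutation test, two-sided, p = 0.2, with 0.1 the smallest p that 3 against 3 libraries allow).

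Before the results, 2 neighbouring genes set the UHRF1-AID/DNMT1-AID line apart on every day. PUDP (ENSG00000130021.15, chromosome X, 6667865 to 7148158, GRCh38) and STS (ENSG00000101846.8, chromosome X, 7147237 to 7804358) overlap at their starts. PUDP encodes a pseudouridine phosphatase and STS a steroid sulfatase. Over the 9 UHRF1-AID/DNMT1-AID libraries of days 2, 6 and 8, PUDP had 1 read and STS had 0. DNMT1-AID held from 16.1 to 34.6 CPM of PUDP and from 3.77 to 6.05 CPM of STS on those days. Replicate 2 of UHRF1-AID had the same lack, with 3, 1 and 2 reads of PUDP and 1, 0 and 0 reads of STS on days 2, 6 and 8. PNPLA4, which lies beyond STS, was read in every library, at 8.66, 11.4 and 10.6 CPM against 18.6, 16.9 and 17.6 CPM in DNMT1-AID on day 8. No other tested gene had at most 3 reads per day in 1 of these lines and at least 1 CPM in every library of the other. The low value of PUDP on day 8 was thus present by day 2, and whether these genes are deleted or silent was not tested.

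The degrons act on protein, so the transcripts of UHRF1 and DNMT1 do not measure the depletion of their proteins. UHRF1 (ENSG00000276043.5, chromosome 19, 4903080 to 4962154) stood at 67.2, 39.3 and 75.6 CPM in UHRF1-AID/DNMT1-AID and at 120, 119 and 124 CPM in DNMT1-AID. The groups did not overlap, and the transcript fell by 0.99 ± 0.25 on the log2 scale (SE, edgeR's quasi-likelihood test, adjusted p = 0.00231). DNMT1 (ENSG00000130816.17, chromosome 19, 10133342 to 10231286) stood at 53.4, 46.2 and 32.6 CPM against 70.1, 59.1 and 62.8 CPM. It fell by 0.54 ± 0.21 (edgeR, adjusted p = 0.0363), a call that was lost with DESeq2 at an adjusted p of 0.0588. In WT, where neither gene is tagged, UHRF1 averaged 149 CPM and DNMT1 199 CPM on day 8.

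A gene was called higher or lower in UHRF1-AID/DNMT1-AID at an adjusted p under 0.05 and a change of more than 2-fold. By this rule 1494 genes (9.69% of those tested) were higher and 277 (1.8%) were lower, so 84.4% of the calls were higher. At any fold, 3419 genes (22.2%) rose and 3693 (24%) fell, and the median log2 fold change of all tested genes was -0.005. The calls above 2-fold thus leaned to higher values, while at any fold slightly more genes fell than rose under TMM scaling. The median depends on the scaling, and was 0.043 with DESeq2 or with RLE scaling in place of TMM. The balance at any fold was not compared across scalings. In 3655 genes (23.7%) all 3 UHRF1-AID/DNMT1-AID libraries were above all 3 of DNMT1-AID, and in 3769 (24.5%) all were below. Of the genes called, 1386 of the 1494 and 250 of the 277 did not overlap between the groups. The higher genes started low: their median level was 0.381 CPM in DNMT1-AID and 2.19 CPM in UHRF1-AID/DNMT1-AID. Of them, 1025 (68.6%) were under 1 CPM in DNMT1-AID, a level that 13.9% of all tested genes were under, and 1206 (80.7%) were under 1 CPM in WT. The lower genes were at medians of 9.63 CPM in DNMT1-AID and 3.55 CPM in UHRF1-AID/DNMT1-AID. Changes above 8-fold numbered 554 among the higher genes and 11 among the lower. Low read numbers make the fold of many of these genes imprecise, and 90 of the higher genes had 0 reads in DNMT1-AID.

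**Figure D1:**
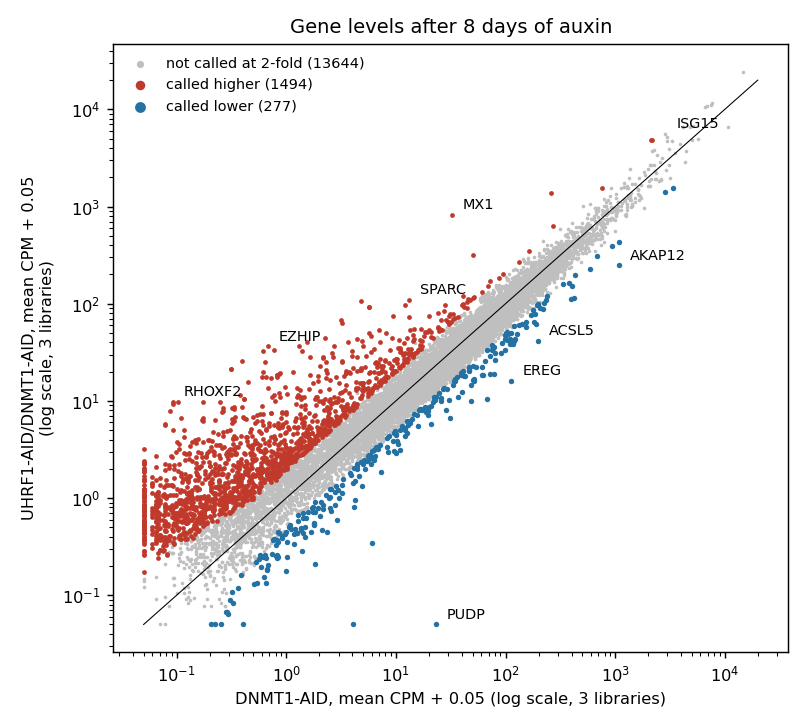
Mean CPM of each tested gene on day 8 in DNMT1-AID (x axis) and in UHRF1-AID/DNMT1-AID (y axis), both on log scales with 0.05 added, with the 1494 genes called higher and the 277 called lower in colour. The higher genes lie mostly at the low end of the x axis, with a median of 0.381 CPM, and the lower genes are spread along the diagonal.

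The largest increases among genes that reached 5 CPM came from genes with few or no reads in DNMT1-AID, and 8 of the 12 highest lie on chromosome X. RHOXF2 and RHOXF2B, homeobox genes of the germline, MAGED4 and MAGED4B, and CXorf49 and CXorf49B are pairs of near-identical copies. How reads that map to more than 1 copy were counted is not stated, so the values within each of these pairs are uncertain. RHOXF2 was read at 7.19, 9.15 and 12.8 CPM in UHRF1-AID/DNMT1-AID and at 0, 0.128 and 0 CPM in DNMT1-AID, a ratio of 251 (95% counting interval 85.5 to 1220, from 677 and 3 reads). NPTX2, a secreted neuronal pentraxin, had 6.17, 12.3 and 9.14 CPM against 0, 0.128 and 0 CPM, a ratio of 238 (81.0 to 1155). MAGED4 had 4.74, 6.93 and 5.43 CPM against 0, 0.0856 and 0 CPM, a ratio of 219 (60.1 to 1811). In each of these genes every UHRF1-AID/DNMT1-AID library was above 4 CPM while DNMT1-AID had at most 3 reads over the group, and WT had none. These intervals cover counting error only.

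At the other end, PUDP had 0 reads in the 3 UHRF1-AID/DNMT1-AID libraries and 21.2, 23.8 and 24.8 CPM in DNMT1-AID, which makes it at least 522-fold lower with a floor of 3 reads over the group. EREG, the EGF receptor ligand epiregulin, stood at 16.4, 10.6 and 21.3 CPM against 122, 116 and 102 CPM. It fell by 2.81 ± 0.14 (edgeR, adjusted p = 8.31e-16), and WT was higher still at 558 CPM.

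The promoters of these genes are shown because CpG is the site of DNA methylation, and because the genes at the top of the list differ in how many they hold. Each run is the 250 bases upstream of the RefSeq transcription start on GRCh38.p14, 5′ to 3′ along the strand of the gene, with every CpG in capitals. The windows are RHOXF2 chrX:120158363-120158612 (+), NPTX2 chr7:98617035-98617284 (+), MAGED4 chrX:52184638-52184887 (+), MAGED4B chrX:52069184-52069433 (-), PUDP chrX:7148154-7148403 (-) and EREG chr4:74364895-74365144 (+).
RHOXF2: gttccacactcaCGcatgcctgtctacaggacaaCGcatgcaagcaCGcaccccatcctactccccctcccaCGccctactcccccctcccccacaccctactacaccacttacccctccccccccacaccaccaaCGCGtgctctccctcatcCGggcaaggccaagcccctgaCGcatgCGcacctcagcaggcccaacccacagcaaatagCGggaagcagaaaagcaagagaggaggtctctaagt
NPTX2: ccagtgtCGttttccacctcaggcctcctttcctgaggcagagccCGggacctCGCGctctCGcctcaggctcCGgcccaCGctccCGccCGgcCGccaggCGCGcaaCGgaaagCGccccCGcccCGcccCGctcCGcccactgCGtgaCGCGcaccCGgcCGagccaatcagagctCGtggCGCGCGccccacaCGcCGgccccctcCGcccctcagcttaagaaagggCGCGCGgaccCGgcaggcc
MAGED4: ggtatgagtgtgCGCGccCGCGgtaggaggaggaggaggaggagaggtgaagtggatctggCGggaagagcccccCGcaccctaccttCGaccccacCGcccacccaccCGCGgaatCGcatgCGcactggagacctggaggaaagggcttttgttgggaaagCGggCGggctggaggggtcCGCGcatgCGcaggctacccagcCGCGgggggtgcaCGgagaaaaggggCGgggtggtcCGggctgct
MAGED4B: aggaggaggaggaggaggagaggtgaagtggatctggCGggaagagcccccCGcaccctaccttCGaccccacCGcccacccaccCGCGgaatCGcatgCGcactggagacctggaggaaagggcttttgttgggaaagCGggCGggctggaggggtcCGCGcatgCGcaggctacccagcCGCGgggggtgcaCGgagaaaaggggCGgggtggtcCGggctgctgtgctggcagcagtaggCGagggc
PUDP: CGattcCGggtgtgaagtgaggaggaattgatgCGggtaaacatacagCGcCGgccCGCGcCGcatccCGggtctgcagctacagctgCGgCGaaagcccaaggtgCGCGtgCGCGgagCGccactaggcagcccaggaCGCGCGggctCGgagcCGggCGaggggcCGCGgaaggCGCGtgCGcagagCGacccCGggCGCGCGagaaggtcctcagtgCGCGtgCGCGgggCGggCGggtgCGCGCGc
EREG: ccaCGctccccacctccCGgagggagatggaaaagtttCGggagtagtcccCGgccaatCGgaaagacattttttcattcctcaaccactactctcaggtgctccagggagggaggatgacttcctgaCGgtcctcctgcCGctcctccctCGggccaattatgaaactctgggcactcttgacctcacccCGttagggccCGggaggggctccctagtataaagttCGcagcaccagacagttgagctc
RHOXF2 holds 10 CpG in this window and NPTX2 34, and the copies MAGED4 and MAGED4B hold 22 and 19. PUDP, at 0 reads, has the densest window with 41 CpG, and EREG has 11.

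Among the other genes at the top, TFDP3, a testis-expressed relative of the E2F partner DP1, had 6.88, 7.01 and 9.62 CPM against at most 0.0607 CPM in any DNMT1-AID library. PCSK1N, an inhibitor of a prohormone convertase, stood at 25.8, 28.7 and 23.1 CPM against 0.0607, 0.556 and 0.407 CPM (log2 fold change 6.36 ± 0.45, edgeR, adjusted p = 1.16e-11). CTSF, a lysosomal cysteine protease, rose by 6.54 ± 0.48 on the log2 scale, the X-linked pair CXorf49 and CXorf49B by 6.38 ± 0.45 and 6.37 ± 0.44, and TSPYL5, whose promoter is known to be methylated in tumours, by 6.17 ± 0.44. ECEL1, a membrane peptidase of neurons, rose by 5.98 ± 0.70 from 7 reads in DNMT1-AID. For all 12 genes the mean of UHRF1-AID was below that of UHRF1-AID/DNMT1-AID, at 0.302 CPM for RHOXF2 to 5.22 CPM for PCSK1N, and WT was at or near 0.

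The other genes with the strongest decreases were expressed in all 4 lines. AKAP12, a scaffold protein for protein kinase A, stood at 270, 201 and 278 CPM against 1125, 1084 and 1021 CPM, and fell by 2.11 ± 0.18 (edgeR, adjusted p = 5.78e-10). ACSL5, which activates long-chain fatty acids, stood at 46.8, 32.8 and 45.6 CPM against 220, 238 and 142 CPM and fell by 2.26 ± 0.23. The levels in DNMT1-AID of both were close to or above WT, at 1184 CPM for AKAP12 and 131 CPM for ACSL5. HS3ST1, a heparan sulfate sulfotransferase, fell by 2.72 ± 0.42, TMEM200A by 2.29 ± 0.54, SCG2, a secretogranin, by 2.24 ± 0.35 and ADGRF1, an adhesion G protein-coupled receptor, by 2.06 ± 0.34. The rule that named these genes asked for groups that do not overlap.

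Cancer-testis antigens, proteins normally made in the testis whose promoters are methylated in somatic cells, made up the list with the greatest share of calls. Of 64 listed genes, 50 were tested, 44 rose and 2 fell, and 43 were called higher, against 9.69% of all genes. The median log2 fold change was 3.02. The filter on low counts kept genes silent in DNMT1-AID only where other libraries read them, among them those of UHRF1-AID/DNMT1-AID. Part of the share called is thus set by the filter. A nearer reference is the tested genes under 1 CPM in DNMT1-AID, of which 1025 were called higher and 1120 were not. CTAG1A, one of the near-identical genes for the antigen NY-ESO-1, had 23.9, 38.7 and 35 CPM against 0.364, 0.556 and 0.763 CPM (5.91 ± 0.41, edgeR, adjusted p = 4.06e-12). PAGE2B rose by 5.15 ± 0.32 to 19.9 CPM and PAGE5 by 5.30 ± 0.37 to 15.8 CPM, both from under 1 CPM. The antigens XAGE1A, XAGE1B and CTAG2 reached 92.4, 92.6 and 68.7 CPM from 5.63, 5.63 and 3.13 CPM. MAGEA4 was read at 364, 113 and 486 CPM against 41.2, 70.5 and 40.3 CPM, and replicate 2 was well below the other UHRF1-AID/DNMT1-AID libraries. Its log2 fold change was 2.66 ± 0.66 (edgeR, adjusted p = 0.00217).

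Members of the list that WT cells express did not share the increase. MAGEA2 and MAGEA2B, near-identical copies at 65.7 CPM in WT for MAGEA2, fell by 0.44 ± 0.09 and 0.42 ± 0.09. MAGEB2, at 274 and 270 CPM, had a log2 fold change of 0.02 ± 0.08 (edgeR, adjusted p = 0.85), and MAGEA3 one of -0.17 ± 0.09 (edgeR, adjusted p = 0.1). Together the list took 0.164%, 0.157% and 0.205% of counts in UHRF1-AID/DNMT1-AID and 0.068%, 0.0795% and 0.0678% in DNMT1-AID (exact permutation p = 0.1, the smallest possible). All 3 UHRF1-AID/DNMT1-AID libraries were above all 3 of DNMT1-AID. Some antigens are members of families of near copies (GAGE, CT45A, SSX, NXF2 with NXF2B), and for these the split between copies is uncertain.

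Genes of meiosis and of small RNA silencing in the germline, which guard gametes against retroelements, were the next list. Of 54, 38 were tested, 25 rose, all of them by more than 2-fold, and 1 fell, against 22.2% and 24% of all genes. The median was 1.89, and the limit that the filter sets on the share of cancer-testis antigens holds here as well. EZHIP, an inhibitor of the Polycomb methyltransferase EZH2, had 29.1, 41.3 and 39 CPM against 0.243, 0.642 and 1.02 CPM (5.95 ± 0.39, edgeR, adjusted p = 4.97e-12). DCAF4L1 stood at 35.7, 35.7 and 37.6 CPM against 1, 1.5 and 1.27 CPM and rose by 4.87 ± 0.22 (edgeR, adjusted p = 8.1e-18). The libraries of each line lay close together in this gene and the groups were far apart. TEX101, a sperm surface protein, rose by 5.59 ± 0.47, and DAZL, an RNA-binding protein of germ cells, by 4.68 ± 0.42 to 8.66 CPM.

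Factors of the piRNA pathway rose as well, with MAEL at 11.6 against 0.955 CPM (3.64 ± 0.36), TDRD1 at 3.59 against 0.276 CPM (3.77 ± 0.41) and PIWIL2 at 3.88 against 0.469 CPM (3.08 ± 0.52). DPPA5, a gene of pluripotent and germ cells, had 147 reads against 0, which is at least 54.5-fold higher, and DPPA4 had 68 against 0, at least 25.2-fold. The synaptonemal complex genes SYCE1 and SYCP3 rose by 2.99 ± 0.62 and 1.29 ± 0.32. PLD6, a mitochondrial lipase needed for piRNAs that WT cells express, fell by 0.60 ± 0.13. Members that were already expressed, such as MCMDC2 at 50.6 against 46.4 CPM and GPAT2 at 51.7 against 49.3 CPM, did not pass the test (edgeR, adjusted p = 0.37 and 0.6).

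**Figure D2:**
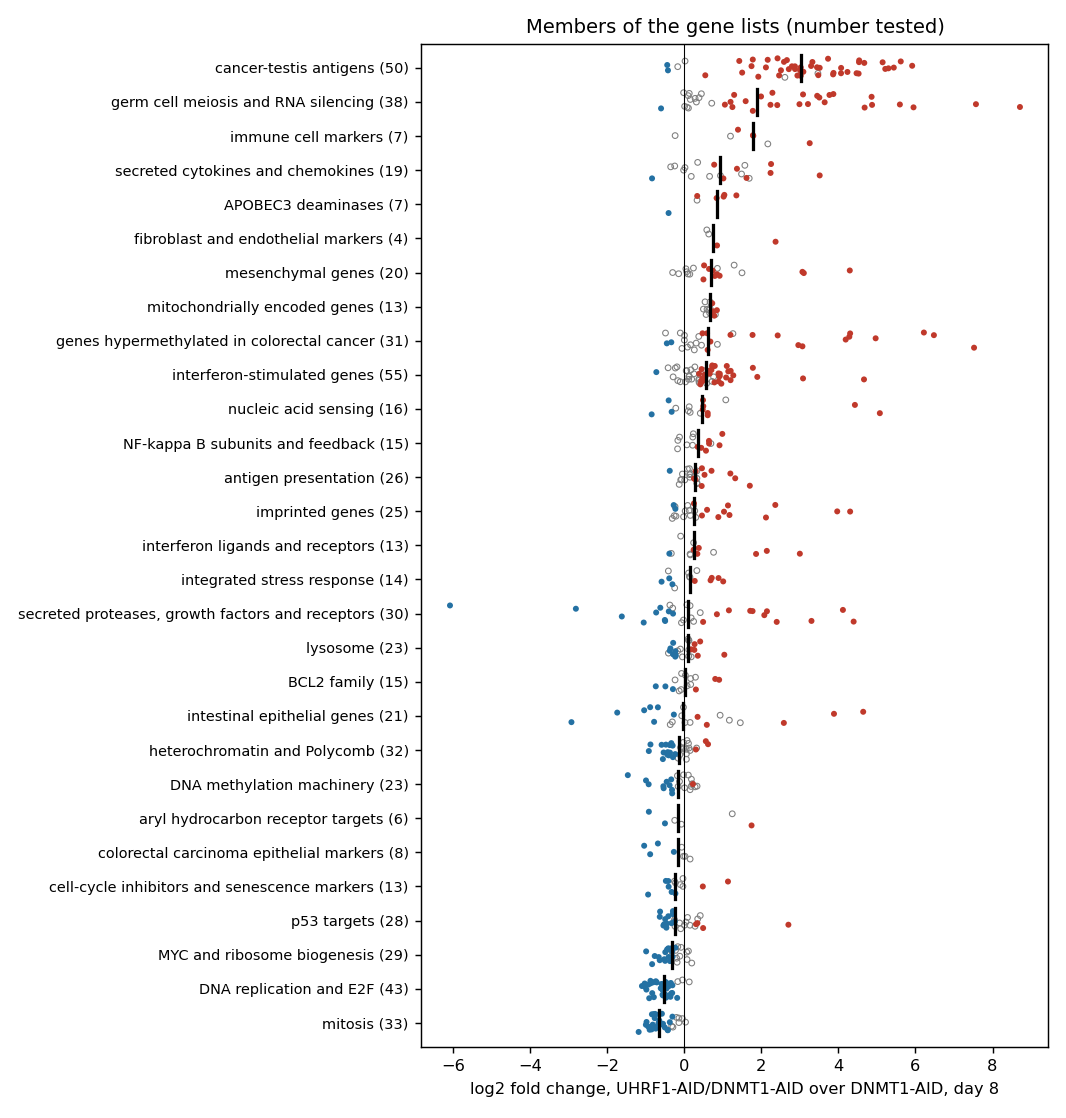
Log2 fold change of UHRF1-AID/DNMT1-AID against DNMT1-AID on day 8 (x axis) for every tested member of the gene lists (y axis), with filled red (higher) and blue (lower) points for an adjusted p under 0.05, open points for the rest and a black bar at the median. Cancer-testis antigens lie to the right with a median of 3.02, DNA replication genes lie between -1.10 and 0.13, and members with 0 reads in a group stand at the fitted value.

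Interferon-stimulated genes encode antiviral proteins that cells make after interferon signalling. All 55 listed genes were tested, 30 rose and 1 fell, against 22.2% and 24% of all genes, and 10 were called higher. Their summed level was 41460, 45990 and 38760 CPM in UHRF1-AID/DNMT1-AID and 27090, 26920 and 27890 CPM in DNMT1-AID, and the median log2 fold change was 0.55. MX1, a GTPase that blocks viral replication, stood apart at 776, 969 and 737 CPM against 31.2, 35.5 and 31.2 CPM. The groups were more than 20-fold apart with no overlap (4.66 ± 0.33, edgeR, adjusted p = 7.87e-11). UHRF1-AID held 327 CPM of MX1 and WT 4.79 CPM. Its relative MX2 rose by 1.90 ± 0.33 to 54.3 CPM.

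RTP4, an interferon-induced chaperone of receptors, had 15.4, 21.2 and 11.8 CPM against 2.16, 1.58 and 1.93 CPM (3.08 ± 0.39). IRF7, the transcription factor that amplifies interferon production, was at 632, 697 and 557 CPM against 259, 291 and 270 CPM, and rose by 1.20 ± 0.14 (edgeR, adjusted p = 5.12e-08). ISG15, a ubiquitin-like modifier and among the most abundant transcripts of the list, was at 5194, 6008 and 5616 CPM against 2571, 3200 and 2864 CPM and rose by 0.96 ± 0.23 (edgeR, adjusted p = 0.0011). In these genes no UHRF1-AID/DNMT1-AID library was as low as any of DNMT1-AID. OASL, of the oligoadenylate synthetase family, rose by 0.90 ± 0.21 and IFITM1, which blocks virus entry, by 1.20 ± 0.20.

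Not all members moved. OAS1 was at 286, 323 and 201 CPM against 172, 196 and 169 CPM (0.59 ± 0.30, edgeR, adjusted p = 0.113), and IFI27 at 2364, 2951 and 2756 CPM against 1761, 2131 and 2332 CPM (0.38 ± 0.28, edgeR, adjusted p = 0.292). In both the groups did not overlap, and both passed when the fit was made on the 6 libraries alone (edgeR, adjusted p = 0.00412 and 0.0251). STAT2, a factor that carries the interferon signal, was at 69 against 81 CPM and did not pass (edgeR, adjusted p = 0.093). HERC6, a ubiquitin ligase, fell by 0.72 ± 0.11.

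The receptors and enzymes that sense nucleic acids in the cytosol had 16 members tested, of which 7 rose and 3 fell, against 22.2% and 24% of all genes. CGAS, the sensor of cytosolic DNA, had 4.84, 3.19 and 5.52 CPM against 0.334, 0.0856 and 0.153 CPM (4.43 ± 0.51, edgeR, adjusted p = 5.1e-08). All 3 UHRF1-AID/DNMT1-AID libraries were above 3 CPM, while UHRF1-AID held 0.289 CPM and WT 0.0723 CPM. STING1, the adaptor that receives the signal of cGAS, moved the other way, at 22.3, 20.4 and 17.8 CPM against 40.5, 28.6 and 39.2 CPM (-0.85 ± 0.20, edgeR, adjusted p = 0.0012). ZBP1, a sensor of Z-form nucleic acid, rose by 5.08 ± 0.79 to 2.85 CPM, and TREX1, a nuclease that clears cytosolic DNA, by 0.61 ± 0.13. The RNA sensor RIGI rose by 0.48 ± 0.17 and DHX58 by 0.61 ± 0.14, while MAVS, the adaptor of these RNA sensors, fell by 0.41 ± 0.12 and ADAR, which edits double-stranded RNA, by 0.33 ± 0.10.

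Of the interferons, the type III genes rose. IFNL1 had 8.92, 15.1 and 7.41 CPM against 1, 1.58 and 1.37 CPM (3.0 ± 0.43, edgeR, adjusted p = 8.41e-07), with UHRF1-AID at 1.66 CPM and WT at 0.442 CPM. Every UHRF1-AID/DNMT1-AID library was more than 4-fold above every DNMT1-AID library. IFNL2 and IFNL3, near-identical copies, rose by 1.86 ± 0.45 and 2.14 ± 0.49. Both chains of the receptor for these interferons rose by less, IFNLR1 by 0.38 ± 0.14 and IL10RB by 0.34 ± 0.09, and the kinase JAK1 fell by 0.39 ± 0.10. IFNB1, the type I interferon most cells make first, was under the filter, with 30 reads against 1 (ratio 33.4, 95% counting interval 5.55 to 1361), and is named after its values were seen.

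Antigen presentation genes, which load peptides onto HLA molecules, had 26 members tested, of which 10 rose and 1 fell (median 0.28), against 22.2% and 24% of all genes. HLA-G was at 15.8, 16.5 and 13.7 CPM against 5.5, 5.74 and 2.75 CPM (1.70 ± 0.24). PSMB8, a subunit of the immunoproteasome, was at 112, 125 and 102 CPM against 39.3, 54.3 and 42.1 CPM (1.32 ± 0.20), and CD74, the invariant chain of class II molecules, at 105, 134 and 85.5 CPM against 45.9, 44.2 and 51.7 CPM (1.20 ± 0.16). Each of the 3 was more than 1.5-fold higher in every UHRF1-AID/DNMT1-AID library than in any DNMT1-AID library. HLA-B, HLA-E and HLA-F rose by 0.53, 0.45 and 0.71, HLA-C did not pass (0.14 ± 0.11, edgeR, adjusted p = 0.29), and CIITA, the regulator of class II genes, fell by 0.38 ± 0.08. The count of members that rose was 6 without UHRF1-AID/DNMT1-AID replicate 2.

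Within the NF-kappa B list, 7 of 15 genes rose and none fell at the threshold, against 22.2% and 24% of all genes. None of the list passed 2-fold. NFKB2, the precursor of the p52 subunit, was at 288, 314 and 263 CPM against 134, 147 and 155 CPM (0.99 ± 0.10, edgeR, adjusted p = 2.04e-09). Its partner RELB rose by 0.64 ± 0.11, and the inhibitors NFKBIA, NFKBIB and NFKBIE, which are themselves targets of the pathway, rose by 0.64 ± 0.13, 0.44 ± 0.10 and 0.56 ± 0.11. The subunits of the classical dimer, RELA at 139 against 156 CPM and NFKB1 at 17.9 against 19.5 CPM, did not pass (edgeR, adjusted p = 0.2 and 0.43).

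Of 19 cytokines and chemokines tested, 7 rose and 1 fell (median 0.94), against 22.2% and 24% of all genes. IL32, a cytokine of epithelial and immune cells, stood at 23.8, 31.6 and 20.1 CPM against 1.18, 2.7 and 2.9 CPM (3.51 ± 0.29, edgeR, adjusted p = 2.04e-11), with no overlap. CCL5, a chemokine for T cells, rose by 2.24 ± 0.38 to 10.3 CPM, IL11 by 1.37 ± 0.25 to 4.92 CPM and IL15 by 0.78 ± 0.22 to 8.95 CPM, while LIF fell by 0.84 ± 0.22. CXCL8 was at 3.03 against 1.92 CPM and did not pass (edgeR, adjusted p = 0.061). IL6 had 5 reads against 0 and IL1B had none in either group.

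Among 30 proteases, growth factors and receptors, 11 rose and 10 fell, against 22.2% and 24% of all genes. MMP13, a collagenase, had 14.4, 12.5 and 11.5 CPM against 1.18, 1.63 and 1.07 CPM (3.30 ± 0.34), MMP1 rose by 2.08 ± 0.44 and MMP9 by 2.15 ± 0.35. ICAM1, an adhesion molecule for leukocytes, had 21.2, 21.8 and 15.5 CPM against 2.76, 3.81 and 4.68 CPM (2.40 ± 0.22), and TNFRSF1B, a TNF receptor, 45.8, 64.4 and 54.6 CPM against 19.4, 13.8 and 17.1 CPM (1.71 ± 0.18). IGFBP4, which binds insulin-like growth factors, rose by 4.12 ± 0.53 and TIMP1, a metalloproteinase inhibitor, by 0.85 ± 0.09 to 1066 CPM. The genes that fell included several of the EGF receptor axis: beside EREG, AREG fell by 1.62 ± 0.15 from 118 to 38.4 CPM and EGFR by 0.73 ± 0.14 from 114 to 68.9 CPM. The plasminogen activators PLAU and PLAT fell by 1.05 ± 0.20 and 0.62 ± 0.24.

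**Figure D3:**
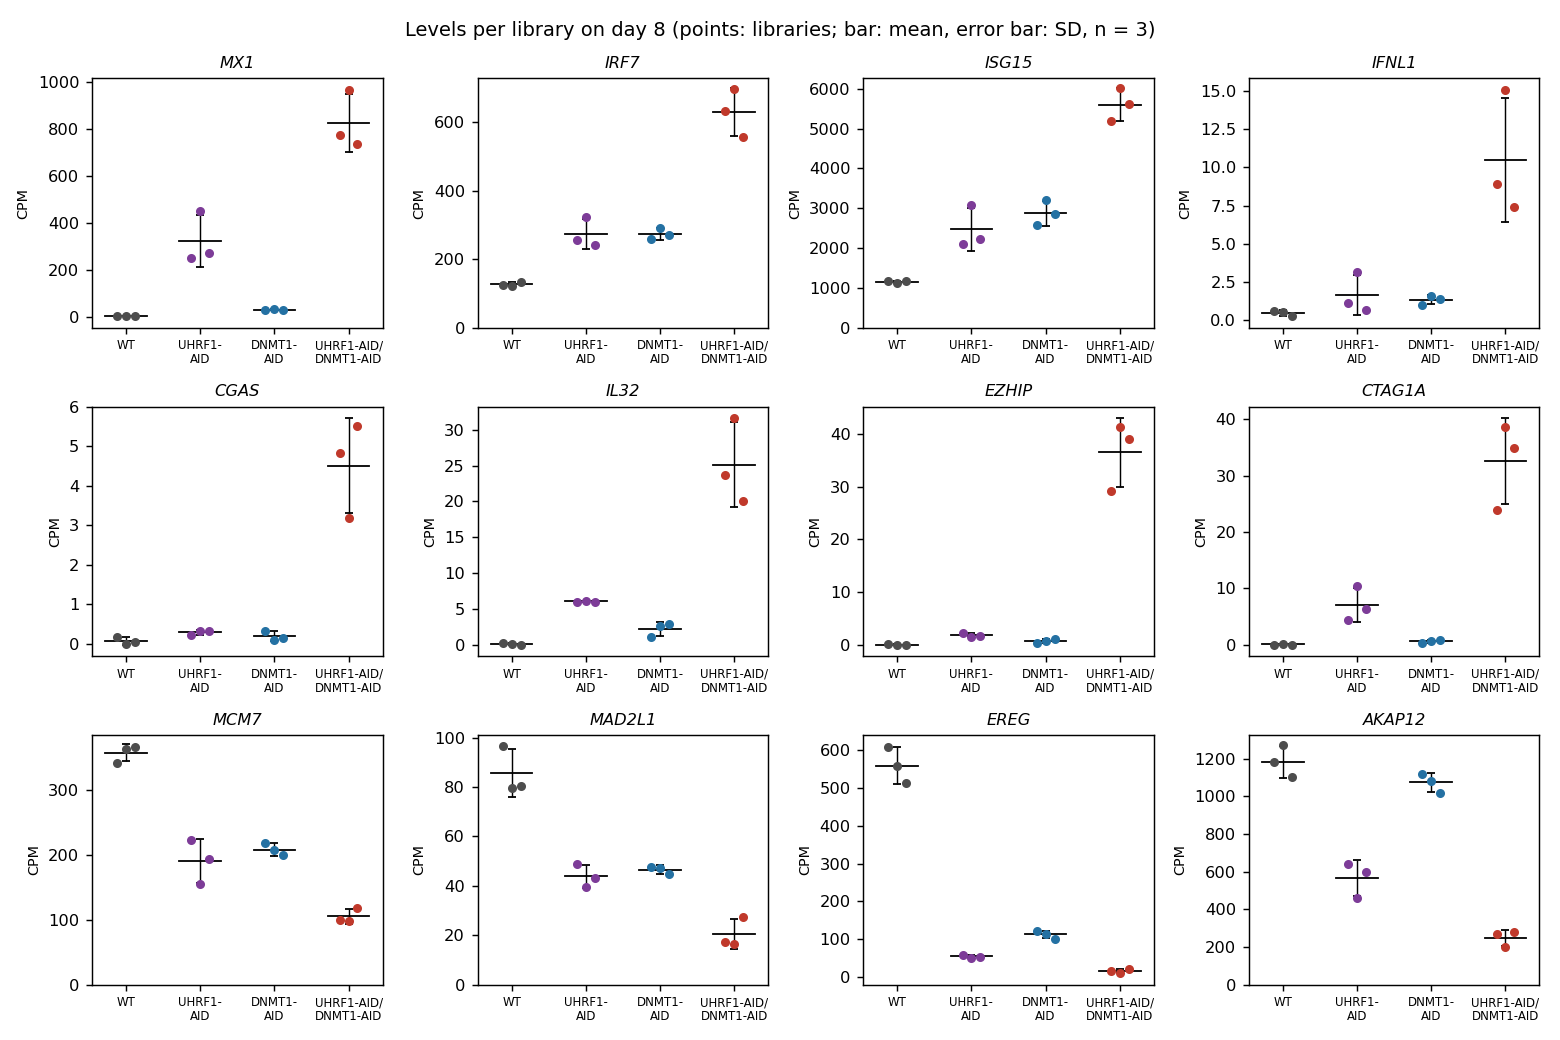
CPM per library on day 8 (linear y axes) of 12 genes in the 4 lines, WT at the left, then the lines with 1 tag and, at the right, the line with both, with points for the 3 libraries, bars for the mean and error bars for the SD. MX1, IFNL1, CGAS, IL32, EZHIP and CTAG1A are highest in UHRF1-AID/DNMT1-AID, while MCM7, MAD2L1, EREG and AKAP12 are lowest there.

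Genes of DNA replication under E2F control moved together in the other direction. Of 43 tested, 40 fell and 0 rose at an adjusted p under 0.05 (edgeR), against 24% and 22.2% of all genes, with a median of -0.52. Only 3 of them, RRM2, MCM2 and ORC1, passed 2-fold, so the decreases were broad and moderate. MCM7, a subunit of the replicative helicase, was at 100, 97.3 and 118 CPM against 218, 207 and 199 CPM (-0.98 ± 0.09, edgeR, adjusted p = 5.84e-10), and WT had 357 CPM. RRM2, the small subunit of ribonucleotide reductase, fell by 1.10 ± 0.11 from 233 to 109 CPM, and RFC3, of the clamp loader, by 0.87 ± 0.10. PCNA, the sliding clamp, fell by 0.47 ± 0.08 from 203 to 147 CPM. POLD1, the catalytic subunit of DNA polymerase delta, overlapped between the groups at 59.8, 62.9 and 69.5 CPM against 63.1, 59.4 and 53.2 CPM (0.13 ± 0.11, edgeR, adjusted p = 0.341), and POLE and CCNE2 did not pass either.

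Of 33 genes of mitosis, 26 fell and 0 rose (edgeR, adjusted p under 0.05), against 24% and 22.2% of all genes. The list median was -0.65. MAD2L1, of the spindle checkpoint, was at 17.4, 16.5 and 27.4 CPM against 47.9, 47.3 and 44.7 CPM (-1.18 ± 0.12, edgeR, adjusted p = 2.25e-09). The 3 DNMT1-AID libraries lay within 4 CPM of each other and all were above UHRF1-AID/DNMT1-AID. The cyclins CCNA2, CCNB1 and CCNB2 fell by 0.90 ± 0.10, 0.65 ± 0.11 and 0.84 ± 0.10, the kinases PLK1 and AURKA by 0.94 ± 0.11 and 0.60 ± 0.10, and BUB1B by 0.98 ± 0.11. MKI67, a proliferation marker, was at 55.2 against 67.6 CPM and did not pass (edgeR, adjusted p = 0.19), and PTTG1, which encodes securin, had overlapping libraries and a log2 fold change of 0.03 ± 0.10 (edgeR, adjusted p = 0.804). MYC fell by 0.99 ± 0.16, and with it 17 of the other 28 listed genes of ribosome biogenesis, among them DDX21 (-0.77 ± 0.10), WDR43 (-0.66 ± 0.08) and NOLC1 (-0.64 ± 0.08).

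The cell-cycle inhibitors did not rise as a group: of 13 inhibitors and senescence markers, 2 rose and 6 fell, against 22.2% and 24% of all genes. CDKN1A, which encodes p21, was at 235, 266 and 306 CPM against 317, 284 and 363 CPM (-0.25 ± 0.13, edgeR, adjusted p = 0.0961), and the groups overlapped. CDKN2A, which encodes p16 and ARF, overlapped as well, at 108, 113 and 135 CPM against 121, 126 and 136 CPM (-0.10 ± 0.11, edgeR, adjusted p = 0.47). CDKN1C, which encodes the imprinted inhibitor p57, rose by 1.13 ± 0.16, at 112, 223 and 122 CPM against 69.1, 71.4 and 67.7 CPM. LMNB1, the lamin whose loss is a known mark of senescent cells, fell by 0.94 ± 0.15 from 79.5 to 41.6 CPM, HMGB1 by 0.41 ± 0.08, and GLB1, the gene of the lysosomal beta-galactosidase, by 0.23 ± 0.07.

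Of 28 p53 targets, 12 fell and 4 rose (median -0.24), against 24% and 22.2% of all genes, and none of those that fell passed 2-fold. The count that fell was 7 without DNMT1-AID replicate 3, and the count that rose was 2 without DNMT1-AID replicate 1 or UHRF1-AID/DNMT1-AID replicate 3. PERP, a p53-induced desmosome protein, fell by 0.63 ± 0.08 from 454 to 294 CPM, ZMAT3 by 0.64 ± 0.12 and MDM2, the p53 ubiquitin ligase, by 0.45 ± 0.09, while PLK3 rose by 0.49 ± 0.13. WT held 295 CPM of PERP, 19.7 of ZMAT3 and 148 of MDM2, against 294, 12.7 and 105 CPM in UHRF1-AID/DNMT1-AID. DNMT1-AID itself was above WT in 11 of the 28 and below in 0 (edgeR, adjusted p under 0.05), against 3863 and 3460 of all 15415 genes. In the BCL2 family, 3 of 15 rose and 3 fell, close to the shares over all genes. BCL2L11, which encodes the death inducer BIM, fell by 0.74 ± 0.10 from 31.2 to 18.7 CPM and PMAIP1, which encodes NOXA, by 0.49 ± 0.12, while BMF rose by 0.90 ± 0.24.

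Of 23 genes of the DNA methylation machinery, 10 fell and 1 rose, against 24% and 22.2% of all genes. CDCA7, which guides the remodeller HELLS to methylated DNA, was at 9.58, 3.36 and 8.57 CPM against 23, 18.8 and 16.9 CPM (-1.47 ± 0.20), and HELLS fell by 0.92 ± 0.13. DNMT3B, a de novo methyltransferase, fell by 0.46 ± 0.13 from 10.8 to 7.88 CPM, while DNMT3A (14 against 13 CPM) and UHRF2 (12.2 against 10.4 CPM) did not pass (edgeR, adjusted p = 0.71 and 0.13). ZBTB33, a reader of methylated DNA, rose by 0.22 ± 0.09. Of 32 genes of heterochromatin and Polycomb, 15 fell and 3 rose, against the same 24% and 22.2% of all genes. SUV39H1, a writer of H3K9 methylation, fell by 0.92 ± 0.14, RESF1, a partner of the H3K9 methyltransferase SETDB1, by 0.88 ± 0.17, and EZH2, the Polycomb methyltransferase, by 0.34 ± 0.11, and PHF1, a Polycomb accessory protein, rose by 0.56 ± 0.08. SETDB1 and its cofactor TRIM28 had log2 fold changes of -0.02 ± 0.10 and 0.06 ± 0.09 and did not pass.

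Imprinted genes, expressed from the allele of 1 parent, had 25 of 33 tested, of which 11 rose and 2 fell, against 22.2% and 24% of all genes. NNAT was at 10.2, 14 and 11.9 CPM against 0.243, 0.985 and 1.22 CPM (3.97 ± 0.33, edgeR, adjusted p = 2.35e-11), FAM50B rose by 2.12 ± 0.29, ZFAT by 1.17 ± 0.14 and IGF2 by 0.59 ± 0.20 from 205 to 309 CPM. UBE3A fell by 0.23 ± 0.08 with overlapping libraries. Reads of the 2 alleles were not told apart here.

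Of 42 genes known to be hypermethylated in colorectal cancer, 31 were tested, 16 rose and 2 fell (median 0.61), and 12 were called higher. Over all genes these shares were 22.2%, 24% and 9.69%, and the limit of the filter given for cancer-testis antigens holds here too. UNC5C, a netrin receptor, had 16.1, 22.1 and 21.3 CPM against 0.82, 1.37 and 1.12 CPM (4.19 ± 0.25, edgeR, adjusted p = 5.57e-14), and GATA5 and SFRP1, a Wnt antagonist, rose by 4.97 ± 0.46 and 4.28 ± 0.47. NOTUM, a secreted enzyme that inactivates Wnt proteins, rose by 2.42 ± 0.27 from 257 to 1381 CPM. SDC2 and ALX4 had 66 and 26 reads against 0, which makes them at least 24.5-fold and 9.64-fold higher. The medians of this list and of the germ cell list are the same with such genes at these bounds. HLTF and SEPTIN9, both expressed in DNMT1-AID, fell by 0.34 ± 0.09 and 0.45 ± 0.12.

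Of 21 intestinal epithelial genes, 5 rose and 7 fell, against 22.2% and 24% of all genes. DNMT1-AID itself was above WT in 13 of the 21 and below in 0 (edgeR, adjusted p under 0.05), against 3863 and 3460 of all 15415 genes. KRT20, a keratin of differentiated colonocytes, fell by 1.74 ± 0.39 from 48.6 to 14.5 CPM, the transcription factor ELF3 by 1.04 ± 0.15 and KRT19 by 0.68 ± 0.11. ASCL2, a factor of intestinal stem cells, and CDX1, a homeobox factor of the gut, rose by 4.64 ± 0.64 and 3.88 ± 0.50. Of 20 mesenchymal genes, 10 rose and 0 fell (edgeR, adjusted p under 0.05), against the same shares of all genes. SPARC, a matrix glycoprotein that is also on the hypermethylated list, was at 79.5, 120 and 131 CPM against 13.1, 9.42 and 17.1 CPM (3.07 ± 0.39), TGFBI rose by 4.29 ± 0.74, COL5A1 by 3.10 ± 0.50 and the integrin subunit ITGA5 by 0.64 ± 0.09. The transcription factors ZEB1, SNAI1 and TWIST1 did not pass, with log2 fold changes from 0.04 to 0.24.

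Markers of other cell types were low on both sides, and their counts stand against 22.2% of all genes that rose and 24% that fell. Of 10 immune cell markers, 7 were tested and 4 rose (median 1.78), among them CD14, CD3D and ITGAM, none above 2.02 CPM on average. The summed level of the list was 26.2, 20.0 and 28.3 CPM against 19.7, 28.1 and 19.7 CPM, with overlap, and most of it was CD68. The defining markers CD3E, MS4A1 and LYZ had 13, 1 and 10 reads against 13, 0 and 18. Of 10 fibroblast and endothelial markers, 4 were tested and 2 rose, COL1A1 by 0.85 ± 0.17 from 22.3 to 40.2 CPM and PECAM1 by 2.37 ± 0.52 to 2.33 CPM. Their sum was 48.4, 48.0 and 36.1 CPM against 23.5, 23.2 and 24.6 CPM, LUM and DCN had at most 17 reads in a group, and KDR had 0 reads in UHRF1-AID/DNMT1-AID and CDH5 0 in DNMT1-AID. The part of other cell types in these results was not tested. Of 8 epithelial markers, 4 fell and 0 rose (edgeR, adjusted p under 0.05), with EPCAM and CDH1 at log2 fold changes of 0.02 ± 0.16 and -0.07 ± 0.17. In bulk libraries, fewer cells that express a gene and less RNA per cell cannot be told apart.

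The remaining lists were smaller, and their counts stand against 22.2% of all genes that rose and 24% that fell. Of 7 APOBEC3 genes, which encode DNA and RNA cytidine deaminases, 5 rose and 1 fell: APOBEC3A by 1.35 ± 0.22, APOBEC3B by 1.04 ± 0.15 and APOBEC3G by 1.02 ± 0.23, with APOBEC3C lower by -0.41 ± 0.13. In the integrated stress response, 5 of 14 rose, led by ATF3 (1.01 ± 0.17), DDIT3 (0.89 ± 0.17) and PPP1R15A (0.71 ± 0.11), and 3 fell, PHGDH (-0.59 ± 0.18), SHMT2 (-0.39 ± 0.09) and DDIT4 (-0.31 ± 0.11). Of 23 lysosomal genes, 6 rose and 7 fell, near the 22.2% and 24% of all genes, with the sialidase NEU1 up by 1.04 ± 0.16 to 270 CPM. Aryl hydrocarbon receptor targets, which indole compounds such as auxin can reach, included CYP1A1, which was higher at 35.3, 46.9 and 35.7 CPM against 9.11, 10.5 and 15.8 CPM (1.75 ± 0.29), and NQO1, which was lower at 349, 302 and 390 CPM against 646, 676 and 646 CPM (-0.92 ± 0.09). Of the 13 mitochondrially encoded genes, 4 rose and 0 fell (edgeR, adjusted p under 0.05), against 22.2% and 24% of all genes. MT-CO1 rose by 0.75 ± 0.27 with overlapping libraries, since DNMT1-AID replicate 3 had 19610 CPM and UHRF1-AID/DNMT1-AID replicate 3 had 19390 CPM.

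By chromosome, X stood out. Of 593 genes tested there, 138 (23.3%) were called higher and 10 lower, against 9.69% higher over all genes, and 44 of the 138 were in the cancer-testis or germ cell list. The limit that the filter sets on the share of cancer-testis antigens holds for these X genes as well. Near-identical copies on X count as separate genes. On the other nuclear chromosomes the share called higher ran from 5.24% on 18 to 12.4% on 19. On chromosome 19, 145 of 1174 genes were higher, with a median log2 fold change of 0.20. Zinc finger genes there, with 15 of 170 higher and 2 lower, had a smaller share higher than the whole chromosome or all genes. No mitochondrial gene passed 2-fold.

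**Figure D4:**
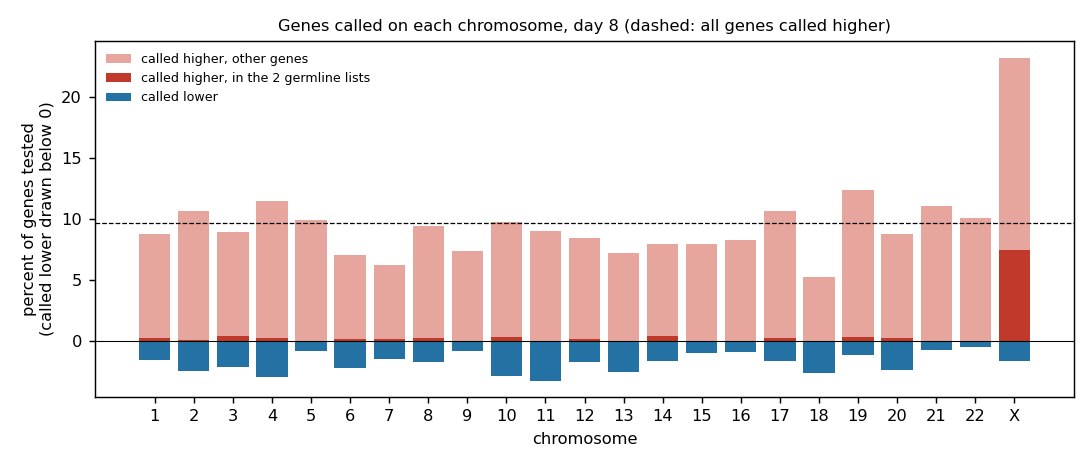
Percent of tested genes called higher and lower in UHRF1-AID/DNMT1-AID against DNMT1-AID on day 8 (y axis, lower drawn below 0) for each chromosome (x axis), with the germline lists in a darker shade and a dashed line at the 9.69% called higher over all genes. The X bar reaches 23.3%, and no other chromosome is above 12.4%.

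Promoters of the called genes had fewer CpG than those of tested genes in general. In the 250 bases upstream of the annotated start, the median was 21 CpG (quartiles 13 and 28) over tested genes, 14 (6 and 24) over genes called higher and 14 (4 and 24) over genes called lower. Low expression goes with CpG-poor promoters, so the tested genes under 1 CPM in DNMT1-AID are the nearer reference: among these, genes called higher had a median of 14 CpG and 62.2% had at least 10, while those not called higher had a median of 8 and 45.8% had at least 10. Searched on both strands, the core of the interferon-stimulated response element (GAAA, any 2 bases, GAAA) was in 30 of the 55 promoters of interferon-stimulated genes, in 2.45% of all tested promoters and in 3.15% of those of genes called higher. An E2F motif, TTTCCCGC or TTTGGCGC, was in 14 of 43 promoters of replication genes (32.6%) and in 2 of 33 of mitosis genes (6.06%), against 3.16% of all. The E-box CACGTG was in 12 of 38 promoters of germ cell genes (31.6%) and in 8.88% of all. These matches describe letters in a window and not binding.

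Long noncoding RNAs were fitted with all annotated genes, which gave 4594 tested. Of these, 446 (9.71%) were called higher and 316 (6.88%) lower, a more even split than for protein-coding genes. LINC00200 had 3.47, 3.43 and 5.24 CPM against 0 reads in DNMT1-AID, and MEG3, an imprinted RNA of the DLK1 locus, had 11.7, 9.55 and 9.34 CPM against 0, 0.201 and 0 CPM (7.25 ± 0.62). DLK1 itself rose by 2.36 ± 0.59 to 1.43 CPM. Also high were ENSG00000231476 (6.84 ± 0.57) and ENSG00000267629 (5.01 ± 0.62). The lowest were DCTN1-AS1 (-2.47 ± 0.34), ENSG00000232934 (-2.27 ± 0.24) and ENSG00000272639 (-2.26 ± 0.20). The strand setting of the gene counts is not stated. All of these but ENSG00000231476 share bases with other annotated genes, so their reads cannot be told apart from reads of those genes. ENSG00000232934 lies within ACSL5, which fell by 2.26, and DCTN1-AS1 overlaps DCTN1 on the opposite strand. LINC00200 overlaps ADARB2 and WDR37, ENSG00000267629 overlaps HAPLN4 and TM6SF2, and ENSG00000272639 overlaps ALDH1A3.

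The same lines were read on days 2 and 6 in other libraries. On day 2, 605 genes (3.92%) were higher in UHRF1-AID/DNMT1-AID than in DNMT1-AID and 71 (0.461%) lower, and on day 6, 1010 (6.55%) were higher and 92 (0.597%) lower. Genes higher on both day 2 and day 8 numbered 509, which is 84.1% of those of day 2 and 34.1% of those of day 8. For day 6 the shared number was 907, or 89.8% of day 6 and 60.7% of day 8. Of the genes lower on day 2, 35 (49.3%) were lower on day 8, and of those lower on day 6, 72 (78.3%). No gene was called in opposite directions on days 2 and 8. A gene called on 1 day and not on the other need not differ between the days: of the 985 genes higher on day 8 and not on day 2, 121 passed the test of the change itself. At any fold, 940 genes (6.1%) rose and 727 (4.72%) fell on day 2, and 1557 (10.1%) rose and 2002 (13%) fell on day 6. In DNMT1-AID, libraries with the same replicate number deviated together over the days, with correlations across genes of 0.119 to 0.287, so the days are not fully independent. With a block for the number within each line, the difference changed beyond 2-fold upward in 203 genes and downward in 157 since day 2. Since day 6 the numbers were 45 and 26. In UHRF1-AID/DNMT1-AID the same numbers correlated at only -0.0158, -0.0706 and 0.103 between days 2 and 8. The block may thus pair unrelated libraries in that line.

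That test, the difference on day 8 minus the difference on day 2, called 168 genes (1.09%) in the higher direction and 120 (0.778%) in the lower beyond 2-fold, and 590 (3.83%) and 1258 (8.16%) at any fold. The interferon-stimulated genes changed direction over the days: on day 2, 2 of the 55 were higher in UHRF1-AID/DNMT1-AID and 20 lower (median -0.51), on day 6, 16 were higher and 1 lower (median 0.31), and on day 8, 30 and 1. Over all genes 6.1% were higher and 4.72% lower on day 2, and 10.1% and 13% on day 6. The change from day 2 to day 8 passed upward in 31 of the 55 and downward in 0 (edgeR, adjusted p under 0.05). The upward count was 21 without DNMT1-AID replicate 1 of day 2 and 38 without UHRF1-AID/DNMT1-AID replicate 1 of day 2. MX1 went from 3.66 ± 2.84 against 1.57 ± 0.78 CPM on day 2 (SD, n = 3) to 827 ± 124 against 32.6 ± 2.48 CPM on day 8, a change of 3.44 ± 0.71 (edgeR, adjusted p = 0.00275). ISG15 had a log2 fold change of -0.56 on day 2 and 0.30 on day 6 before the 0.96 of day 8, and NFKB2 had -0.23 and 0.19 before 0.99. IFNL1 was at 0.062 ± 0.107 against 0.136 ± 0.148 CPM on day 2, 2.58 ± 0.647 against 0.609 ± 0.147 CPM on day 6 and 10.5 ± 4.06 against 1.32 ± 0.295 CPM on day 8. Its change since day 2 was 4.11 ± 1.36 (edgeR, adjusted p = 0.0434), a call that was lost without any of 7 of the 12 libraries, at an adjusted p of up to 0.401.

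Of 26 antigen presentation genes, 10 changed upward from day 2 to day 8 and 0 downward (edgeR, adjusted p under 0.05), and of 15 NF-kappa B genes 6 and 0. Over all genes 3.83% changed upward and 8.16% downward at any fold. Downward changes included 14 of 33 mitosis genes, 7 of 43 replication genes and 5 of 28 p53 targets. These counts varied with single libraries: antigen presentation gave 5 without UHRF1-AID/DNMT1-AID replicate 2 of day 8 and 6 without DNMT1-AID replicate 1 or 3 of day 8 or replicate 3 of day 2, mitosis gave 8 without UHRF1-AID/DNMT1-AID replicate 2 of day 8 and 9 without DNMT1-AID replicate 3 of day 2, and replication gave 11 without UHRF1-AID/DNMT1-AID replicate 3 of day 8. The replication genes had begun to differ by day 2, when 23 of the 43 were lower (median -0.37), while of the mitosis genes 9 of 33 were lower on day 2 (median -0.25) and 1 on day 6 (median 0.01). Over all genes 4.72% were lower on day 2 and 13% on day 6. From day 6 to day 8, 23 of the 33 mitosis genes changed downward, against 1.7% of all genes downward and 1.23% upward at any fold. Beyond 2-fold, 26 genes (0.169%) changed upward between days 6 and 8 and 16 (0.104%) downward. IL32 had a log2 fold change of 1.51 on day 2, 1.95 on day 6 and 3.51 on day 8. EREG and AKAP12 moved apart with time, from -1.20 and -0.69 on day 2 to -2.81 and -2.11 on day 8, changes of -1.62 ± 0.19 and -1.42 ± 0.25.

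The germline genes differed early. On day 2, 35 of 50 cancer-testis antigens and 18 of 38 germ cell genes were already higher at the threshold, against 6.1% of all genes. The limit of the filter given for these lists on day 8 holds on day 2 as well. From day 2 to day 8 the difference passed upward in 1 antigen and 2 germ cell genes and downward in 8 and 0. Over all genes 3.83% changed upward and 8.16% downward, so the upward counts were near the share of all genes. CGAS had 15 reads in UHRF1-AID/DNMT1-AID and 0 in DNMT1-AID on day 2, and was at 4.21 against 0.383 CPM on day 6 and 4.52 against 0.191 CPM on day 8. SCX, a transcription factor of tendon cells, was the strongest downward change (-3.67 ± 0.61, edgeR, adjusted p = 0.000272): both lines rose, from 2.74 to 26.5 CPM in UHRF1-AID/DNMT1-AID and from 0.0583 to 7.88 CPM in DNMT1-AID, whose day 2 value rests on 3 reads.

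**Figure D5:**
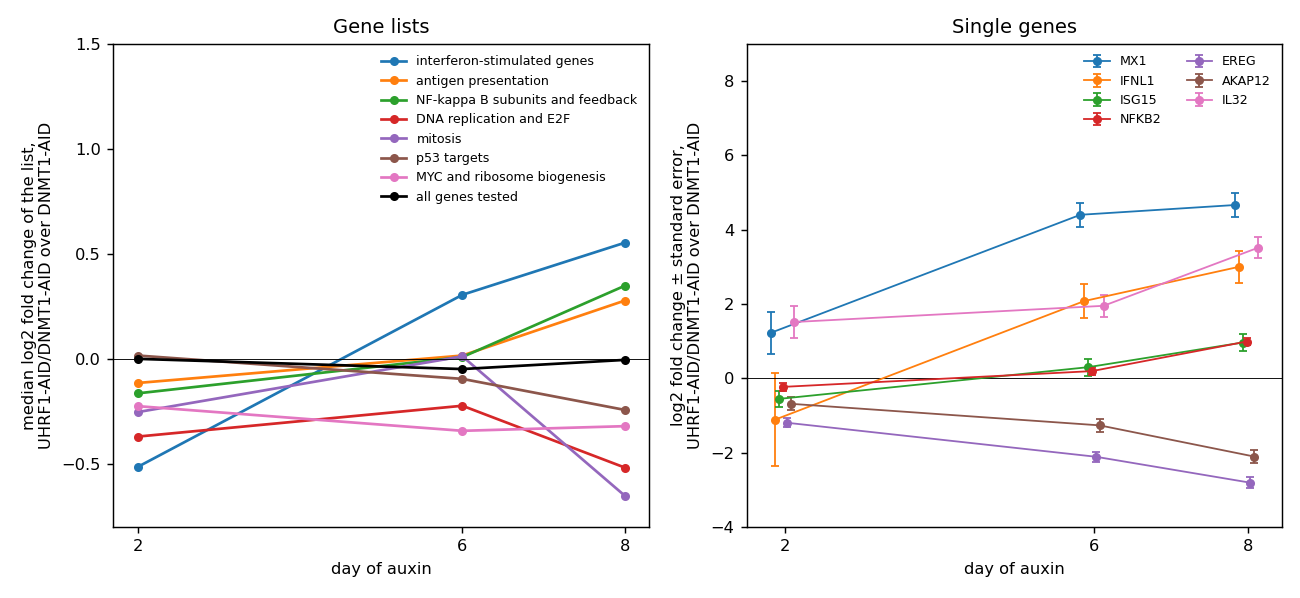
Left, median log2 fold change of UHRF1-AID/DNMT1-AID against DNMT1-AID on days 2, 6 and 8 for 7 gene lists and all tested genes. Right, the log2 fold change ± SE of 7 genes on the same days, where IFNL1 on day 2 rests on 3 and 7 reads. The interferon-stimulated genes go from a median of -0.51 to 0.55, the mitosis genes from -0.25 to -0.65, and MX1 goes from 1.23 on day 2 to 4.66 on day 8.

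The 4 lines on day 8 also allow the effect of the UHRF1 degron in cells with the DNMT1 degron to be set against its effect in cells with untagged DNMT1, that is UHRF1-AID against WT. The test of the difference of these effects called 133 genes (0.863%) beyond 2-fold in the higher direction and 563 (3.65%) in the lower, and at any fold 566 (3.67%) and 1602 (10.4%). These effects are on the log2 scale. In 24 of the 50 cancer-testis antigens the log2 effect of the UHRF1 degron was smaller in DNMT1-AID cells, and in 0 larger (edgeR, adjusted p under 0.05). DNMT1-AID was itself above WT in 42 of the 50 by the same threshold, so the 2 effects start from different levels. A smaller log2 effect thus need not be a smaller gain in CPM. MAGEA9 averaged 96.0 CPM in UHRF1-AID/DNMT1-AID, 28.1 in DNMT1-AID, 64.6 in UHRF1-AID and had 0 reads in WT, and the difference of effects had an adjusted p of 5.19e-15 (edgeR). Its copy MAGEA9B went with it.

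For interferon-stimulated genes, 9 of 55 had a smaller log2 effect in DNMT1-AID cells and 0 a larger one (edgeR, adjusted p under 0.05). For antigen presentation the counts were 8 of 26 and 0. For replication and mitosis genes, 2 of 43 and 3 of 33 passed, all in the higher direction. Over all genes 10.4% passed in the lower direction and 3.67% in the higher. By their medians both lists fell in both comparisons: by -0.52 and -0.65 in DNMT1-AID cells, and by -0.71 and -0.69 in UHRF1-AID against WT. For a gene that fell in both, the higher direction is a smaller decrease. ADAMTS2, a procollagen protease, was among those with a larger effect in DNMT1-AID cells, at 9.84 ± 1.24 against 0.742 ± 0.568 CPM, with UHRF1-AID at 7.40 and WT at 5.55 CPM (difference of effects 3.19 ± 0.43, edgeR, adjusted p = 2.62e-06). AURKC, a kinase of meiosis, was at 6.74 ± 1.73 against 0.351 ± 0.101 CPM, with UHRF1-AID at 1.43 and WT at 0.563 CPM (2.82 ± 0.57). Replicate 2 of UHRF1-AID, which lacked PUDP and STS reads, enters the group means of this test. In the comparison with DNMT1-AID it enters only the shared estimate of the spread. Without this library the counts of the test of effects were 181 and 578.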

How the data were processed

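Poly(A) RNA-seq was made by the authors from HCT116 lines with paired-end reads. Per the study's methods, reads were trimmed with Trim Galore, aligned to GRCh38 with STAR and counted per gene with featureCounts; the annotation release, strand setting and treatment of multimapping reads are not given in the sources used here, though the study counted transposable elements, not used here, without strand. The deposited values are raw counts per gene and library, with 60648 identifiers, of which 60462 matched GENCODE v44.

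Groups were taken from the labels. Protein-coding genes were filtered with filterByExpr (minimum count 10), scaled by TMM and fitted with edgeR 4.0.16 (robust quasi-likelihood, 1 mean per line and day over 36 libraries, which share 1 estimate of the spread). The comparison of UHRF1-AID/DNMT1-AID with DNMT1-AID on day 8, its change from days 2 and 6, and the difference of UHRF1 degron effects were contrasts of this fit, two-sided, with Benjamini-Hochberg adjustment. SE is the log2 fold change divided by the square root of F. The code was tested on simulated data. Shares of counts were compared by exact permutation. With 0 reads in a group, folds are bounds from a floor of 3 reads over the group. Alternatives were DESeq2 1.42.0, other scalings, filters and sample sets, a replicate block, and leaving out each library.

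Named genes were UHRF1 and DNMT1, the 12 highest and 8 lowest fold changes with at least 5 CPM in 1 group, adjusted p under 0.05 and no overlap, for each list the members with the smallest p (up to 3 that moved with the list's median, 1 that moved against it), genes the study names, the 4 highest and 4 lowest for each change, and lncRNAs from 2 CPM. Other members of the lists were named as examples after their values were seen. The members and lists were chosen with earlier results of these data known. A few genes that these rules name are not reported here.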

Additional observations from a re-analysis of the deposited data

Results flagged for a closer look

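The difference between UHRF1-AID/DNMT1-AID and DNMT1-AID was not the same on all days by a test of the change itself (an interaction term in edgeR's quasi-likelihood fit). From day 2 to day 8 it rose beyond 2-fold in 168 genes and fell in 120. The named upward changes were CACNG7, a calcium channel subunit (4.28 ± 1.13 on the log2 scale), IFNL1 (4.11 ± 1.36), FLT4, a receptor of lymphatic growth factors (3.67 ± 0.88), and MX1 (3.44 ± 0.71). The named downward changes were SCX (-3.67 ± 0.61), PPP1R14A (-3.21 ± 0.58), TEX28 (-3.18 ± 1.00) and B3GNT8 (-2.84 ± 0.75), and SCX and B3GNT8 had 3 reads each in DNMT1-AID on day 2. The calls of IFNL1 and TEX28 were lost without any of 7 and 8 libraries.

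From day 6 to day 8 it rose beyond 2-fold in 26 genes and fell in 16. FKBP11, a prolyl isomerase of the secretory pathway (2.38 ± 0.45), YJEFN3 (1.98 ± 0.39), IL32 (1.56 ± 0.41) and DNASE1L2 (1.52 ± 0.35) led upward, and ENSG00000273167 (-1.94 ± 0.48), NT5DC4 (-1.41 ± 0.37), APOM (-1.28 ± 0.31) and FAM83D, a spindle protein (-1.18 ± 0.17), downward. The call of IL32 was lost without any of 5 libraries.

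The effect of the UHRF1 degron on day 8 differed between cells with the DNMT1 degron and cells with untagged DNMT1, beyond 2-fold, in 133 genes in the higher direction and 563 in the lower. ADAMTS2 (3.19 ± 0.43), AURKC (2.82 ± 0.57), FN3K (2.49 ± 0.81) and FKBP11 (1.97 ± 0.46) were named in the higher direction, and the call of FN3K was lost without any of 9 libraries. In the lower direction the named genes had a group with 0 reads, so only adjusted p is given (edgeR): 0.000431 for MAGEA4, 5.19e-15 for MAGEA9, 5.19e-15 for MAGEA9B and 0.0345 for PUDP. For PUDP, which replicate 2 of UHRF1-AID lacks as well, the call was lost without any of 10 libraries, at an adjusted p (edgeR) of up to 0.0695.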

How the results depend on the processing

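All genes called on day 8 numbered 1494 higher and 277 lower. Without each library in turn the counts were 1351 to 1557 and 231 to 326, and the other settings gave 1142 (CPM of at least 1) to 1723 (no filter) higher and 198 (the 6 libraries alone) to 297 (all annotated genes, and no filter) lower. Over these settings and the left-out libraries 81.8% to 87.2% of calls were higher. A test against a 1.5-fold change gave 1161 and 316.

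The same replicate numbers did not pair the libraries of the 2 lines, with correlations of deviations of 0.0216, -0.00185 and 0.0155. The fit with a replicate block called 1456 higher and 274 lower. With a block within line over days, added after the data were seen, genes that changed from day 6 to day 8 numbered 45 upward and 26 downward, in place of 26 and 16, and with library size scaling 39 were downward. The higher count for the difference of UHRF1 effects was 218 with DESeq2 (133 with edgeR), and that of lncRNAs was 294 with a filter at 1 CPM (446). PTTG1, which did not pass, ranged from -0.075 to 0.124 without each library and turned negative without DNMT1-AID replicate 1 (-0.065) or UHRF1-AID/DNMT1-AID replicate 3 (-0.075).

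Without each library in turn, changes since day 2 numbered 115 to 229 upward and 86 to 154 downward, and changes since day 6 numbered 3 to 46 and 8 to 33, with 3 and 8 without DNMT1-AID replicate 1 and 46 and 33 without UHRF1-AID/DNMT1-AID replicate 3 of day 8. The difference of UHRF1 effects gave 111 to 181 and 481 to 578, and lncRNAs 374 to 476 and 221 to 364. The differences in shares of counts were 2.99 to 4.58 percentage points (mitochondrial), -1.11 to -0.596 (ribosomal protein) and 0.0889 to 0.113 (cancer-testis antigens). The cause of these shifts was not tested. With 3 libraries a side and most higher genes under 1 CPM in DNMT1-AID, depth limits how precisely their folds are known.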

Other observations

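MAGEA4 varied widely among UHRF1-AID/DNMT1-AID libraries. It was at 49.6, 297 and 283 CPM in replicates 1, 2 and 3 on day 2, at 55.4, 263 and 296 CPM on day 6 and at 364, 113 and 486 CPM on day 8. The low library was thus replicate 1 on days 2 and 6 and replicate 2 on day 8. Over all tested genes, the deviations of replicate 1 of day 6 correlated at 0.0585 with replicate 1 and at 0.114 with replicate 2 of day 8, and those of replicate 2 of day 6 at 0.207 with replicate 1 and at 0.00627 with replicate 2. These correlations are across genes, which are not independent replicates. In DNMT1-AID, libraries of the same number correlated over the days at 0.119 to 0.287.

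VCX3A and VCX3B, near copies of a testis gene that lie on either side of PUDP and STS, had 42, 62 and 346 and 40, 33 and 286 reads in the UHRF1-AID/DNMT1-AID libraries of day 8. How reads were split between the copies is not known.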
